A study of Caenorhabditis elegans with 12 samples.

Results

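The genes described here build and join the meiotic chromosomes of the nematode *Caenorhabditis elegans*. They are 10 genes, *him-3* (ZK381.1), *htp-1* (F41H10.10), *htp-2* (Y73B6BL.2), *htp-3* (F57C9.5), *syp-1* (F26D2.2), *syp-2* (C24G6.1), *syp-3* (F39H2.4), *syp-4* (H27M09.3), *rec-8* (W02A2.6) and *him-8* (T07G12.12), taken as every row of the count table whose sequence name without its isoform letter is that of 1 of these genes. Each has 1 row, so they make up 10 of 23953 rows and 10 of the 20185 genes that the table names by a sequence name, and all 10 were kept by the filter on low counts. The rule itself uses gene names and no measured value, although results of these data were known when the genes were chosen.

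In a meiotic nucleus, each replicated chromosome is organised along a protein axis built on cohesin, and the axes of paired homologous chromosomes are then joined along their length by the synaptonemal complex, a process called synapsis. HIM-3, HTP-1, HTP-2 and HTP-3 are axis proteins with a HORMA domain, SYP-1, SYP-2, SYP-3 and SYP-4 form the central region of the synaptonemal complex, REC-8 is a meiotic cohesin subunit, and HIM-8 binds the pairing centre of the X chromosome. In the worm, germ cells first enter meiosis during the L3 larval stage, so L3 animals hold a germline in which this set of genes is coming into use.

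The study asked how *lin-22*, which encodes a Hes-related basic helix-loop-helix transcription factor, acts in the epidermal seam cells, and it sequenced whole L3 larvae collected 31 hr after hatching. There were 12 poly(A)-selected RNA libraries, 3 from each of 4 strains. Animals of *lin-22(icb38)* (strain MBA81), called *icb38* below, carry a deletion placed 2371 bp upstream of the *lin-22* start codon, together with the seam cell marker *wIs51*. Those of *lin-22(ot267)* (OH4265), called *ot267*, have a stop codon at residue 62 of LIN-22, those of *lin-22(ot269)* (OH4271), called *ot269*, have a single C-to-T change further upstream, in sequence that the *icb38* deletion removes, and both carry the marker *vtIs1*. JR667 animals have the wild-type *lin-22* gene, the mutation *unc-119(e2498::Tc1)* and the marker *wIs51*, which supplies *unc-119(+)*. *icb38* and JR667 therefore share a marker, as do *ot269* and *ot267*. In every other pair the allele and the marker differ together and cannot be told apart. The *icb38* mutation, which came from chemical mutagenesis, also deletes part of the neighbouring gene *vrp-1* and carries an insertion of *mca-3* sequence. *icb38* and JR667 thus differ in more than the sequence upstream of *lin-22*, and these differences cannot be told apart. The labels do not say that the 3 libraries of a strain came from separate cultures, so the p-values measure the spread between these libraries, which may be technical.

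Total counts were 56479069 to 78920246 per library (median 68049421), and a member had 114 to 3442 counts in a library. The common biological coefficient of variation between libraries of a strain, which is the spread beyond counting error, was 0.165. Values are normalised counts, that is counts divided by a size factor per library, and they are given in the order of replicates 1, 2 and 3. They were not divided by transcript length, so levels are compared between strains for 1 gene and not between genes. Differences are log2 fold changes. Their p-values come from the quasi-likelihood test of edgeR and were adjusted by the Benjamini-Hochberg method over all 19696 rows tested, and a gene is called changed at an adjusted p of at most 0.1, the threshold of the study. The transcripts of *lin-22* itself had 270.0, 107 and 198 normalised counts in *icb38*, 356, 336 and 293 in *ot267*, 167, 158 and 101 in *ot269*, and 342, 251 and 267 in JR667. Whole animals were sequenced, so fewer germ cells and less RNA per germ cell cannot be told apart in any value below.

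The axis and synapsis genes were called lower in *icb38* than in JR667, and in neither of the other mutants. In *icb38*, 9 of the 10 passed the test and all 9 were lower, where 8.55% of all rows tested were called lower and 16.2% were called in either direction. The same 9 genes were lower in every *icb38* library than in every JR667 library, a separation that 15% of all rows showed. The median log2 fold change of the 10 genes was -1.24, beside 0.01 for all rows. None of the 10 passed the test in *ot267* against JR667 or in *ot269* against JR667. A test across all 4 strains called 9 of the 10, beside 34.9% of all rows, with *rec-8* as the exception (edgeR adjusted p = 0.147).

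**Figure D1:**
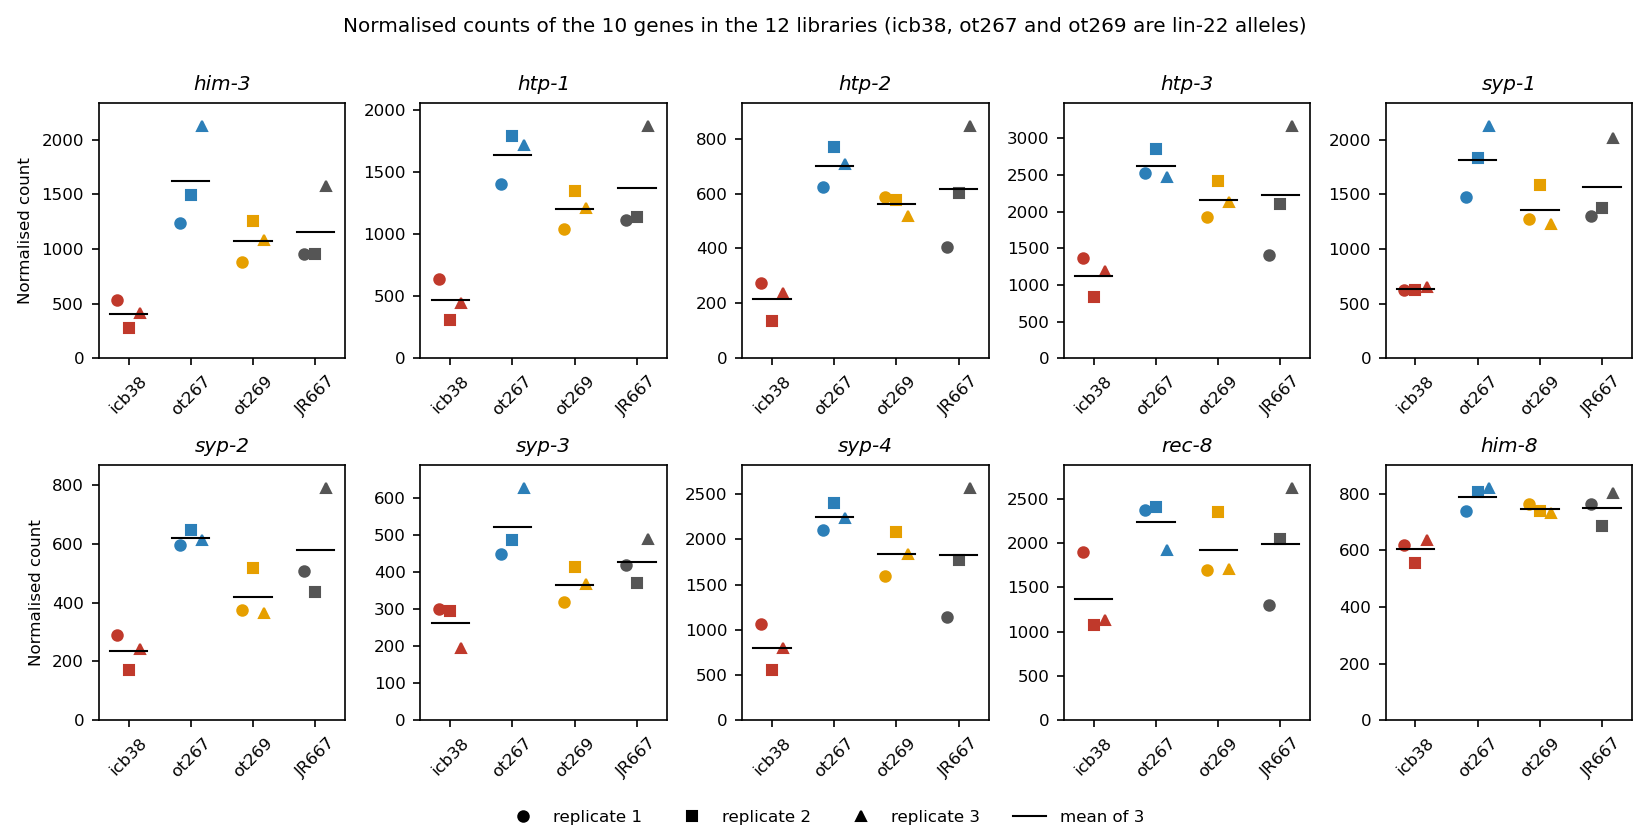
Normalised counts (vertical axis, counts divided by a size factor per library, from 0) of the 10 genes in the 12 libraries, by strain, with 1 symbol per library and a line at the mean of 3. The *icb38* libraries lie below all JR667 libraries for every gene but *rec-8*, and for *syp-1* they lie between 624 and 651.

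All 4 axis genes were lower in *icb38*. *him-3* encodes a HORMA-domain axis protein needed for homologues to synapse and recombine. It had 530.2, 275 and 414 normalised counts in *icb38*, against 954, 950.4 and 1577 in JR667. The highest *icb38* library was below the lowest JR667 library, which exceeded it 1.79-fold. *him-3* averaged 406 ± 128 in *icb38* and 1160.4 ± 361 in JR667 (SD over 3 libraries each), with a log2 fold change of -1.51 (SE 0.260, edgeR adjusted p = 0.00235). The other mutants had 1235, 1495 and 2127 normalised counts in *ot267* and 883, 1258 and 1084 in *ot269*, and both sets overlapped the JR667 libraries.

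*htp-1* and *htp-2* encode near-identical axis proteins, of which HTP-1 coordinates synapsis with the pairing of homologues. Reads from their shared sequence may have been split between the pair or counted for either, so the value of each is uncertain on its own. *htp-1* had 642, 307 and 448 normalised counts in *icb38*, against 1111, 1138 and 1872 in JR667. *htp-2* had 274, 136 and 237 in *icb38*, against 404, 602 and 846 in JR667. For both genes the *icb38* libraries stood apart below the JR667 libraries, with gaps of 1.73-fold for *htp-1* and 1.48-fold for *htp-2* between the nearest libraries. The log2 fold changes were -1.56 for *htp-1* (SE 0.240, edgeR adjusted p = 0.00118) and -1.51 for *htp-2* (SE 0.254, edgeR adjusted p = 0.00205). *htp-1* had the largest log2 fold change of the 10, and its mean was 2.94-fold lower in *icb38* than in JR667. In *ot267*, *htp-1* had 1408, 1795 and 1716 and *htp-2* 622, 769 and 707 normalised counts. In *ot269*, *htp-1* had 1041, 1352 and 1210.0 and *htp-2* 586, 577 and 519.6. All of these values lay within the JR667 range, except that *ot269* replicate 1 was just below it for *htp-1*.

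*htp-3* encodes the axis protein that recruits the other HORMA-domain proteins. Its normalised counts were 1365, 830.2 and 1182 in *icb38*, against 1405, 2103 and 3165 in JR667. The groups touched without overlapping, since JR667 replicate 1 was only 1.03-fold above *icb38* replicate 1. The log2 fold change was -0.98 (SE 0.231, edgeR adjusted p = 0.0150). *ot267* had 2526, 2848 and 2477 and *ot269* 1925, 2409 and 2125 normalised counts, all above the highest *icb38* library and all within the range of JR667.

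The 4 central region genes were lower in *icb38* too. *syp-1* encodes a coiled-coil protein that lies across the space between the paired axes. It had 624, 629 and 651 normalised counts in *icb38*, against 1302, 1380.0 and 2015 in JR667. The 3 *icb38* libraries lay within 1.04-fold of one another, and the ratio of the lowest JR667 library to the highest of them was the widest gap among the 10 genes. *syp-1* averaged 635 ± 14.5 in *icb38* and 1566 ± 391 in JR667 (SD over 3 libraries each), with a log2 fold change of -1.30 (SE 0.172, edgeR adjusted p = 0.000499), the smallest adjusted p of the 10. *ot267* had 1481, 1834 and 2127 and *ot269* 1274, 1585 and 1226 normalised counts. Of these 6 libraries, 3 lay outside the range of JR667: *ot267* replicate 3 above it, and *ot269* replicates 1 and 3 below it. In the WBcel235 annotation *syp-1* overlaps F13A7.14, whose log2 fold change in *icb38* against JR667 was -0.75 (edgeR adjusted p = 0.0102). Whether the authors counted by strand is not stated, so reads shared by these genes cannot be told apart.

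*syp-2* encodes a second central region protein, which needs SYP-1 to reach the chromosomes. It had 289, 172 and 241 normalised counts in *icb38*, against 508, 435 and 789 in JR667, without overlap. The log2 fold change was -1.30 (SE 0.230, edgeR adjusted p = 0.00277). In *ot267* it had 596, 648 and 614 normalised counts, and in *ot269* 374, 519 and 364. Replicates 1 and 3 of *ot269* were below every JR667 library and replicate 2 was not.

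*syp-3* had 300.2, 295 and 195 normalised counts in *icb38*, against 420.2, 371 and 490.1 in JR667. The order of the *icb38* libraries differed from that seen for most of the other genes, with replicate 3 lowest and replicates 1 and 2 nearly equal. The groups did not overlap, and the log2 fold change of *syp-3* was -0.70 (SE 0.192, edgeR adjusted p = 0.0313), the smallest change among the 4 central region genes. This call was lost when JR667 replicate 3 was left out (edgeR adjusted p = 0.125) and when *icb38* replicate 3 was left out (edgeR adjusted p = 0.125). *syp-3* overlaps *mrt-1*, which telomerase needs for its activity, which had 871 to 1009 normalised counts in *icb38* and 811 to 1142 in JR667. Values of *syp-3* were 450.2, 486 and 627 in *ot267* and 319, 413 and 367 in *ot269*.

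*syp-4* had 1060.4, 559 and 795 normalised counts in *icb38*, against 1137, 1768 and 2566 in JR667. As for *htp-3*, JR667 replicate 1 came close to *icb38* replicate 1, 1.07-fold above it. The log2 fold change was -1.18 (SE 0.249, edgeR adjusted p = 0.00849). With 2099, 2396 and 2233 normalised counts in *ot267* and 1597, 2084 and 1838 in *ot269*, *syp-4* lay inside the JR667 range in both. *syp-3* and *syp-4* both encode proteins of the central region that the other SYP proteins need in order to assemble.

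*rec-8* encodes the kleisin subunit that holds sister chromatids together in meiosis. It had 1897, 1077 and 1127 normalised counts in *icb38*, against 1307, 2047 and 2621 in JR667. The groups overlapped, because *icb38* replicate 1 was above JR667 replicate 1. The log2 fold change of *rec-8* was -0.54 (SE 0.242, 95% interval -1.06 to -0.03, edgeR adjusted p = 0.176), and *rec-8* was the only one of the 10 genes not called. This value moved both ways when 1 library was left out, and *rec-8* was called in 2 of those 6 fits. It was -0.77 without JR667 replicate 1 (edgeR adjusted p = 0.0356) and -0.86 without *icb38* replicate 1 (edgeR adjusted p = 0.0392). Without JR667 replicate 2 or 3 it was -0.52 and -0.29 (edgeR adjusted p of 0.245 and 0.533). Without *icb38* replicate 2 or 3 it was -0.40 and -0.42 (edgeR adjusted p of 0.405 and 0.391). *ot267* had 2374, 2403 and 1928 and *ot269* 1700.2, 2355 and 1709 normalised counts, all within the JR667 range.

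*him-8* encodes a zinc finger protein that marks the X chromosome pairing centre. Its normalised counts were 619, 556 and 636 in *icb38*, against 764, 685 and 802 in JR667. Its highest and lowest libraries within a strain differed by at most 1.17-fold in any of the 4 strains, and its groups did not overlap. Its change was also the smallest, a log2 fold change of -0.31 (SE 0.109, edgeR adjusted p = 0.0830). The adjusted p of *him-8* was above 0.1 in 5 of the 6 fits that left out 1 library, at up to 0.242. *ot267* had 738, 805 and 819 and *ot269* 762, 738 and 732 normalised counts.

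**Figure D2:**
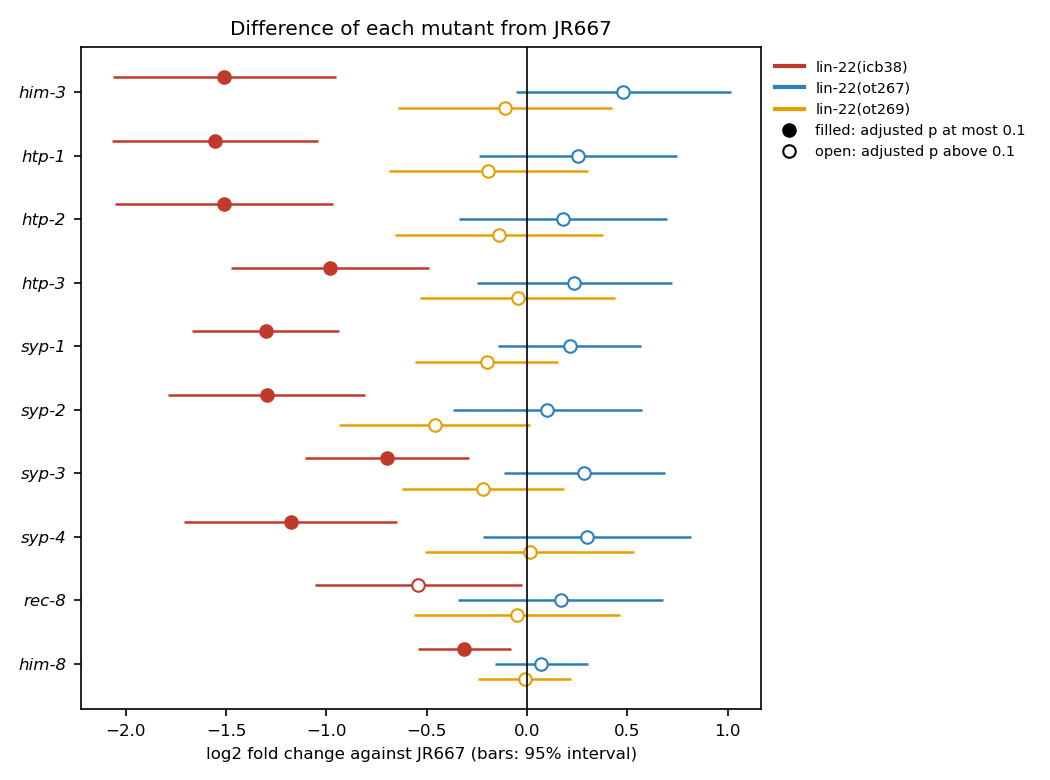
Log2 fold change of each mutant against JR667 (horizontal axis) for the 10 genes, with 95% intervals from the edgeR fit. Filled points have an adjusted p of at most 0.1 and are found in *icb38* alone, where they run from -1.56 for *htp-1* to -0.31 for *him-8*.

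In *ot267*, which has the stop codon in LIN-22, the 10 genes were each a little above JR667 on average and none passed the test, where 8.7% of all rows were called. Log2 fold changes ran from 0.07 for *him-8* to 0.48 for *him-3* (edgeR adjusted p of 0.305 or more), with a median of 0.22 beside 0.01 for all rows, and 0 of the 10 had an unadjusted p under 0.05. The libraries of the pair of strains overlapped for every gene. The 95% intervals of the 10 genes reached from -0.37 at the lowest to 1.01 at the highest, so a fall as large as that of *htp-1* or *him-3* in *icb38* lay outside them.

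In *ot269*, the upstream point mutation, log2 fold changes against JR667 ran from -0.46 for *syp-2* to 0.01 for *syp-4* (edgeR adjusted p of 0.167 or more). None of the 10 passed the test and 0 had an unadjusted p under 0.05, in a comparison that called 26.3% of all rows. The median over the 10 genes was -0.13, beside 0.01 for all rows. *syp-2* came closest to the threshold (SE 0.223, 95% interval -0.94 to 0.01, edgeR adjusted p = 0.167) and passed it when JR667 replicate 2 was left out (log2 fold change -0.63, edgeR adjusted p = 0.0738). All 3 mutants were set against the same JR667 libraries, so their differences from JR667 are not independent of one another.

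The mutants were therefore also compared with each other. These tests used the same fit of 12 libraries, so JR667 entered them through the shared estimate of the spread and the size factors, but not through the means compared. *icb38* was lower than *ot267* in all 10 genes by the test, where 10.2% of all rows were called lower, and every *icb38* library was below every *ot267* library in all 10, as in 16.9% of all rows. Log2 fold changes ran from -1.99 for *him-3* (SE 0.263, edgeR adjusted p = 0.000273) to -0.38 for *him-8* (SE 0.109, edgeR adjusted p = 0.0347). *him-3* was 3.97-fold lower in *icb38* than in *ot267*, with means of 406 ± 128 and 1619 ± 458 normalised counts (SD, n = 3 libraries each). *rec-8*, at -0.71 (SE 0.242, edgeR adjusted p = 0.0719), was the weakest call, with only a 1.02-fold gap between the nearest libraries. With 1 library left out, 8 to 10 of the genes were called. *rec-8* was lost without *icb38* replicate 2, *icb38* replicate 3, *ot267* replicate 1 or *ot267* replicate 2 (edgeR adjusted p of up to 0.228) and *him-8* without *icb38* replicate 2 (edgeR adjusted p = 0.128), and the fit with a replicate block also lost *rec-8* (edgeR adjusted p = 0.122).

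*ot269* and *icb38* both change sequence upstream of *lin-22*. *ot269* was higher than *icb38* in 8 of the 10 genes by the test, beside 9.75% of all rows, and every *ot269* library was above every *icb38* library in 9 of the 10, as in 18.8% of all rows. The differences were largest for *him-3*, *htp-2* and *htp-1*, at 1.40, 1.37 and 1.36 on the log2 scale (SE 0.240 to 0.260, edgeR adjusted p of 0.00178 to 0.00268). *syp-3* did not pass the test at 0.48 (95% interval 0.07 to 0.89, edgeR adjusted p = 0.123), nor did *rec-8* at 0.49 (95% interval -0.03 to 1.01, edgeR adjusted p = 0.214). With 1 library left out, 6 to 8 genes were called, *him-8* in none of the 6 fits, *syp-2* in 4, and *rec-8* only without *icb38* replicate 1.

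*ot269* and *ot267* share the marker *vtIs1*, so this pair differs in the *lin-22* allele with the marker held. The paper describes its *lin-22* mutants not made by genome editing as coming from independent mutagenesis experiments. Any other mutations of these strains cannot be told apart from the *lin-22* allele. None of the 10 genes passed the test between them, where 9.93% of all rows did, although all 10 were lower in *ot269* and 4 had an unadjusted p under 0.05. Every *ot269* library was below every *ot267* library in 6 of the 10 genes, beside 15.3% of all rows. The log2 differences ran from -0.59 for *him-3* (95% interval -1.13 to -0.05, edgeR adjusted p = 0.200) to -0.08 for *him-8*. In a fit of only these 6 libraries, 5 of the 10 genes were called. The 9.93% belongs to the fit of 12 libraries, and the share of all rows in this smaller fit is not given here.

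Ordered by mean level, 9 of the 10 genes ran *ot267*, JR667, *ot269*, *icb38* from high to low, and *syp-4* differed only in that *ot269* stood above JR667, by 0.01 on the log2 scale. The upper 3 strains did not differ from one another by the test in any of the 10 genes, while *icb38* was below *ot269* by the test in 8 of them.

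The log2 fold changes in *icb38* differed in size between the 10 genes, and no test compared them with each other. The log2 of each gene was set against the mean log2 of the other 9 in the same library, so that only its change between strains is read. *rec-8* stood higher relative to the other 9 in *icb38*, at 1.57 (range 1.31 to 1.79), than in JR667, at 0.96 (range 0.70 to 1.19). *him-8* did so too, at 0.31 (range -0.01 to 0.53) in *icb38* and -0.55 (range -0.92 to -0.17) in JR667. For both genes the *icb38* libraries lay above all JR667 libraries. *him-3* and *htp-1* stood lower relative to the others in *icb38*, again without overlap. *him-3* was at -0.38 (range -0.59 to -0.25) in *icb38* and 0.11 (range -0.04 to 0.19) in JR667, and *htp-1* at -0.18 (range -0.42 to 0.05) in *icb38* and 0.38 (range 0.25 to 0.44) in JR667. For the other 6 genes the values overlapped, as for *syp-3*, at -1.05 (range -1.50 to -0.48) in *icb38* and -1.46 (range -1.70 to -1.12) in JR667. With 3 libraries against 3, an exact permutation test cannot give a two-sided p under 0.1, and these relative values are given as a description.

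**Figure D3:**
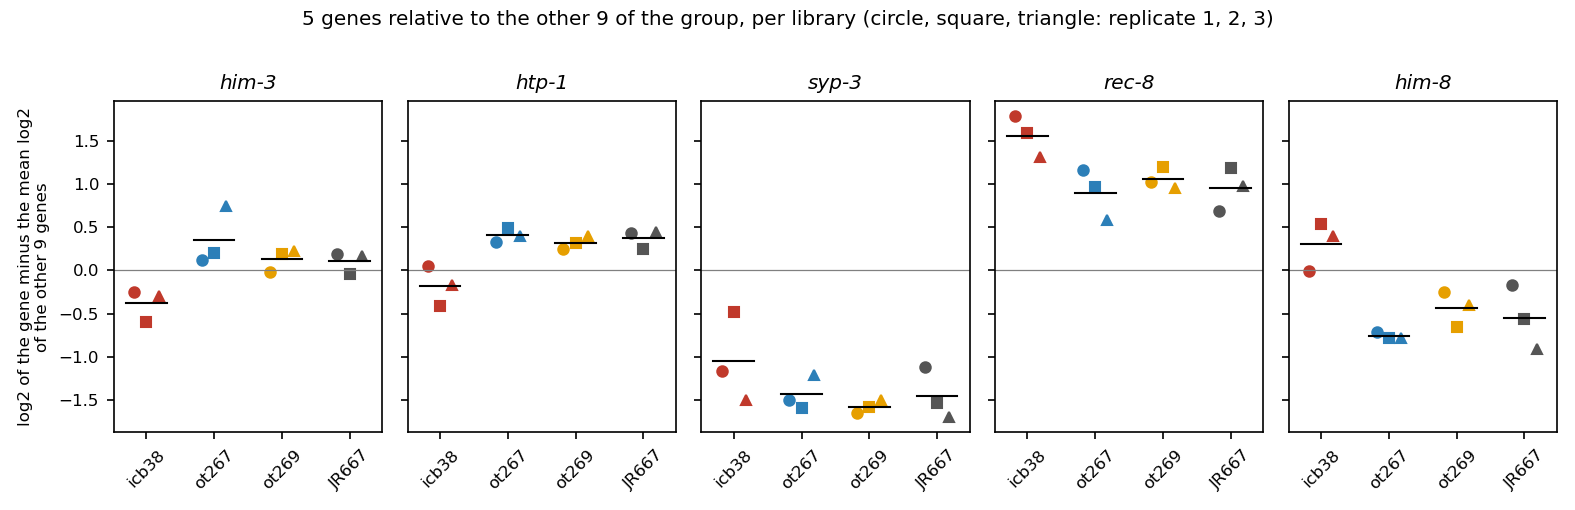
Log2 normalised count of *him-3*, *htp-1*, *syp-3*, *rec-8* and *him-8* minus the mean log2 of the other 9 genes of the set in the same library (vertical axis), by strain, with 1 symbol per library and a line at the mean. The *icb38* libraries lie below JR667 for *him-3* and *htp-1* and above it for *rec-8* and *him-8*.

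Libraries of 1 strain differed in the set as a whole. JR667 replicate 3 was the highest JR667 library for all 10 genes, as it was for 30.7% of all rows. JR667 replicate 1 was the lowest for 6, beside 39.6% of all rows. In *icb38*, replicate 1 was the highest for 8 of the 10, beside 38.5% of all rows. *icb38* replicate 2 was the lowest for 8, beside 37.3% of all rows. Between the highest and the lowest JR667 library, *syp-4* differed 2.26-fold and *htp-3* 2.25-fold. Without JR667 replicate 3 the median log2 fold change of the 10 genes in *icb38* against JR667 was -0.93 and 7 of them were called. The shares of all rows called in this and the following fits are not given here. With the highest JR667 library (replicate 3) and the lowest *icb38* library (replicate 2) both left out, a fit chosen after the data were seen, the median was -0.76 and 5 were called, *him-3*, *htp-1*, *htp-2*, *syp-1* and *syp-2*. With replicate 1 of JR667 and of *icb38* left out, a fit also chosen after the data were seen, the median was -1.49. *rec-8* was then called (-1.08, edgeR adjusted p = 0.00213) and *him-8* was not (edgeR adjusted p = 0.148).

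Across the 12 libraries the log2 levels of the genes moved together. Pearson's r over the 45 pairs of genes ran from 0.63 (*rec-8* with *him-8*) to 0.99 (*htp-3* with *syp-4*), with a median of 0.91. These 12 points share the strain differences and the size factors. After the strain means were subtracted, the median was 0.69, with *htp-3* and *syp-4* still at 0.98 and *htp-2* and *syp-3* at 0.02. *syp-3* and *rec-8* followed the rest least, with r of 0.83 and 0.82 against the mean of the other 9, where *htp-1* had 0.99. Of 16096 other genes, the 5 whose level over the 12 libraries was most like the mean of the set were C48B4.10 (r = 0.99), *hmg-3* (0.99), *prde-1* (0.99), *tofu-7* (0.99) and *syp-5* (0.99), and 268 genes had an r of at least 0.9. *hmg-3* encodes a subunit of the FACT histone chaperone, *prde-1* and *tofu-7* are known from piRNA production in the germline, and *syp-5* encodes another central region protein. *prde-1* averaged 615 normalised counts in *icb38*, 1502 in *ot267*, 1077 in *ot269* and 1197 in JR667.

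Other genes of meiosis were taken from lists by function. Of 14 further pairing and synapsis genes, 10 were lower in *icb38* than in JR667 and none higher, with a median log2 fold change of -0.70. Of all rows, 8.55% were called lower in this comparison. The lower ones included *syp-5* (-0.94, edgeR adjusted p = 0.00734) and *syp-6* (-0.91, edgeR adjusted p = 0.00486) of the central region and *zim-2* (-0.93, edgeR adjusted p = 0.00119), which binds the pairing centre of an autosome. *zim-3*, the neighbour of *him-8* on the chromosome and a member of the same family, had a log2 fold change of -0.77 (edgeR adjusted p = 0.00542), beside -0.31 for *him-8*. Of 28 break formation and crossover genes tested, 14 were lower and none higher (median -0.39). They included *zhp-1* (-1.24, edgeR adjusted p = 0.00128) and *zhp-2* (-1.08, edgeR adjusted p = 0.0138), which encode RING finger proteins, and *him-5* (-1.07, edgeR adjusted p = 0.00396), which promotes breaks on the X chromosome.

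Of 10 cohesin genes tested, 2 were lower in *icb38* and none higher, where 8.55% of all rows were called lower. They were *coh-3* (-0.57, edgeR adjusted p = 0.0670) and *coh-4* (-0.62, edgeR adjusted p = 0.0708), which like *rec-8* encode kleisins of meiotic cohesin, and the median was -0.01. The genes of cohesin subunits that mitotic cells use, *scc-1*, *scc-3*, *him-1* and *smc-3*, had log2 fold changes of -0.04, -0.12, 0.10 and 0.05, none past the threshold. In *ot269* against JR667, 3 of the 10 were higher, where 12.9% of all rows were called higher, and none lower, *scc-2* by 0.98, *evl-14* by 0.37 and *wapl-1* by 0.29 on the log2 scale (edgeR adjusted p of 0.00335, 0.0445 and 0.0670). Of the 14 pairing and synapsis genes, only *lab-1*, which protects sister cohesion, was called in *ot269* against JR667, as higher (1.35, edgeR adjusted p = 0.0478). Of the 28 break formation and crossover genes, only *him-5* was called, as lower (-0.60, edgeR adjusted p = 0.0480), where 13.4% of all rows were called lower. In *ot267* none of the genes of these 3 lists passed the test.

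**Figure D4:**
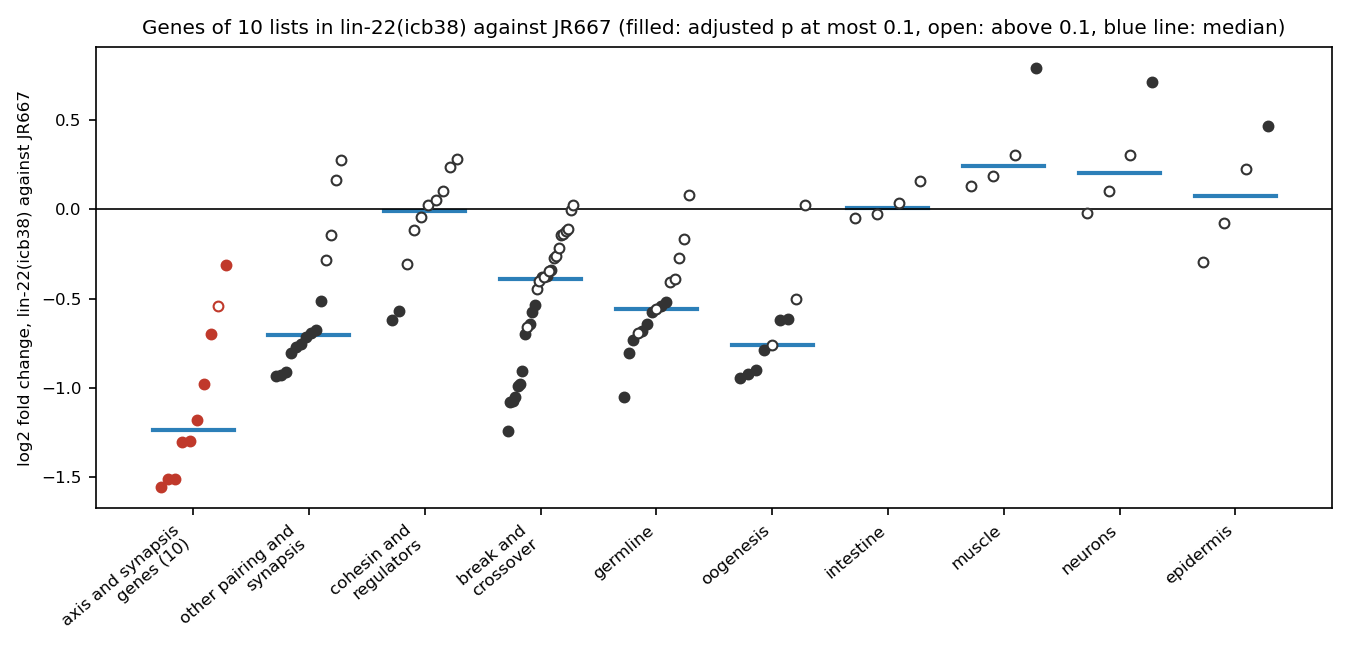
Log2 fold change in *icb38* against JR667 (vertical axis) of the 10 axis and synapsis genes and of the tested genes of 9 other lists, 1 point per gene, filled at an adjusted p of at most 0.1, with a blue line at each median. The median of the 10 genes is -1.24, that of other pairing and synapsis genes -0.70 and that of germline markers -0.56, while cohesin genes and intestine markers lie near 0. Spermatogenesis and late stage markers are not drawn.

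Markers of the whole germline moved with the set. Of 15 germline markers, 8 were lower in *icb38* than in JR667 and none higher, with a median of -0.56, where 8.55% of all rows were called lower. They included *pgl-3*, which encodes a germ granule protein (-1.05, edgeR adjusted p = 0.00904), and *fbf-1* and *fbf-2*, which keep germline stem cells (-0.80 and -0.73, edgeR adjusted p of 0.0116 and 0.00801). The summed level of the 15 ranged from 44691 to 67801 normalised counts in *icb38* and from 53466 to 97394 in JR667, which overlap, and none was at 0 in any library. *glp-1*, which encodes the receptor that keeps germ cells dividing, had 3424, 2161 and 2432 normalised counts in *icb38*, against 2300.3, 3856 and 4355 in JR667, also with overlap. The part of this lower germline signal in the change of the 10 genes was not tested.

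Set side by side in each library as mean log2 differences from the JR667 mean, the 10 genes averaged -1.08 in *icb38* and the 15 germline markers -0.52. The difference between them was -0.57 on the log2 scale, and from -0.62 to -0.47 in the 3 libraries, while in the JR667 libraries it was -0.20 to 0.15. In *icb38* replicate 1 the germline markers were near the JR667 mean, at -0.15, and the 10 genes at -0.76. In *ot267* both averages were close, at 0.26 for the 10 genes and 0.24 for the markers, and in *ot269* they were -0.11 and -0.01.

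**Figure D5:**
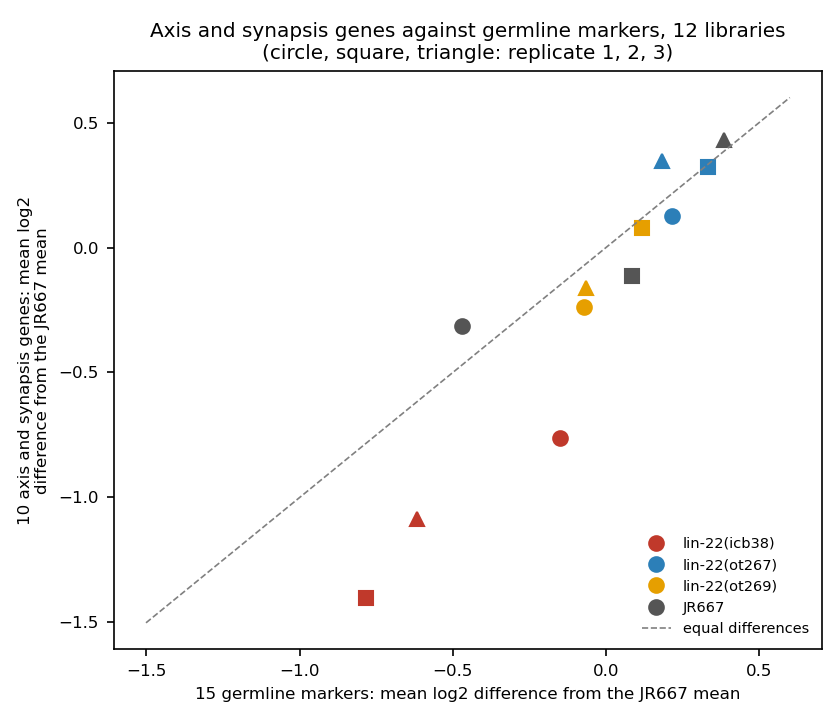
Mean log2 difference from the JR667 mean of the 10 axis and synapsis genes (vertical axis) against that of 15 germline markers (horizontal axis), with 1 point per library and a dashed line where both are equal. The 3 *icb38* libraries lie furthest below the line, by a mean of -0.57 on the log2 scale, and all other libraries lie within 0.20 of it.

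Genes of gamete formation were also among those called lower in *icb38* against JR667, a comparison that called 8.55% of all rows lower. Of 9 spermatogenesis genes tested, 6 were lower in *icb38* than in JR667, among them *fog-3*, which commits germ cells to sperm, with 454, 374 and 384 normalised counts in *icb38* and 890.2, 957 and 1249.7 in JR667 (-1.35, edgeR adjusted p = 0.000163). Genes of later sperm were often at or near 0 counts. *spe-38* had at most 8 counts in any library, and *spe-11* had none in *icb38* and 15, 12 and 6 in JR667. Of 9 oogenesis genes, 6 were lower in *icb38*, with the largest falls in *egg-1* (-0.94), *oma-1* (-0.92) and *egg-2* (-0.90), at edgeR adjusted p of 0.0238, 0.0322 and 0.0225. Neither list had a gene that passed the test in *ot267*. In *ot269* against JR667, *gsp-3* and *fer-1* of the sperm list were lower, where 13.4% of all rows were called lower. *gsp-3* had 0, 8 and 0 counts in *ot269* and 11, 49 and 119 in JR667.

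In *icb38* against JR667, none of 16 markers of somatic tissues was called lower, and all 16 had counts in every library. Of all rows, 8.55% were called lower and 7.66% higher in this comparison. Of the 4 markers of each tissue, none of the intestine list was called, and 1 was higher for body wall muscle (*myo-3*, 0.79, edgeR adjusted p = 0.00970), for neurons (*unc-31*, 0.71, edgeR adjusted p = 0.00320) and for epidermis (*nhr-25*, 0.46, edgeR adjusted p = 0.0222). In the other mutants, 1 somatic marker each was lower than in JR667, *elt-3* of the epidermis in *ot267* (-0.44, edgeR adjusted p = 0.0664) and *act-5* of the intestine in *ot269* (-0.38, edgeR adjusted p = 0.0489). *nhr-25* was higher than in JR667 in these mutants too, by 0.63 in *ot267* and 0.93 in *ot269* (edgeR adjusted p of 0.00673 and 9.43e-05). *unc-31* was also higher in *ot269* (0.54, edgeR adjusted p = 0.00976), while *myo-3* was called in neither. Of 5 markers of late larval or adult cuticle and moulting, 2 were lower in *icb38*, *bli-1* (-5.41, edgeR adjusted p = 0.000462) and *lin-29* (-0.44, edgeR adjusted p = 0.0734). *bli-1*, a cuticle collagen gene, had 175, 114 and 112 normalised counts in *icb38*, 242, 985 and 181 in *ot267*, 141, 201 and 150.1 in *ot269* and 1486, 5407 and 10298 in JR667. It was lower than JR667 in all 3 mutants by the test. Other genes of the list went the other way in *ot269* against JR667, where *mlt-10* and *nas-37* were higher (1.47 and 0.84, edgeR adjusted p of 0.000427 and 0.00173). The summed level of the 5 was 55133 to 66445 normalised counts in *ot269*, 24267 to 32125 in *icb38*, 24735 to 36348 in *ot267* and 21352 to 38750.4 in JR667. Within JR667 both *bli-1* and the 10 genes were highest in replicate 3. The part of developmental age in these values was not tested.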

How the data were processed

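Larvae were synchronised by bleaching, RNA was taken with TRIzol at 31 hr after hatching and stranded mRNA libraries were made. The authors aligned the reads with Bowtie2, and deposited whole-number counts per transcript made with bedtools. Versions, genome build, annotation and strand setting are not given in the sources used here, so no coordinates are printed. The authors also deposited a normalised signal, in which each count (0 set to 1) is divided by a DESeq size factor. It was used only to check the size factors, which differed from those used here by at most 1.72%. Groups came from the sample labels.

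The edgeR package (4.0.16, under R 4.3.3) fitted 1 model to the 12 libraries, with strain as the factor, using RLE size factors, filterByExpr (count minimum of 10), glmQLFit and glmQLFTest. This kept 19696 entries of 16107 genes. Adjusted p-values (Benjamini-Hochberg over all entries tested) were held to 0.1. Log2 values of single libraries used a pseudocount of 1 in the correlations. The values relative to the other genes of the set and to the germline markers used no pseudocount. The procedure was tested on simulated data. Replicates were checked and none held the same library. The text names all 10 genes, up to 3 rises and 3 falls past the threshold in each list and comparison, and the 5 most alike genes. *fog-3* in *icb38* against JR667, *zim-3*, *glp-1*, *spe-38*, the mitotic cohesin genes and the overlapping genes were named after their values were seen. The members and lists were chosen with earlier results of these data known. Gene names came from the WBcel235 gene tables, which matched 23130 entries. Of 110 list symbols, 107 were matched and the others were not analysed here. Replicate numbers and the alternatives, which included DESeq2 1.42.0, are treated in the closing section. Python 3.11.15 with matplotlib 3.10.9 drew the plots.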

Additional observations from a re-analysis of the deposited data

Results flagged for a closer look

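The 2 upstream alleles differed in 8 of the 10 genes, which were higher in *ot269* than in *icb38* by the test of the difference between these mutants themselves. None of the 10 was called in *ot269* against JR667. On the log2 scale, *ot269* exceeded *icb38* by 1.40 for *him-3*, 1.36 for *htp-1*, 1.37 for *htp-2*, 0.93 for *htp-3*, 1.10 for *syp-1*, 0.84 for *syp-2*, 1.19 for *syp-4* and 0.30 for *him-8*. The edgeR adjusted p-values ran from 0.000708 for *syp-1* to 0.0879 for *him-8*. With 1 library left out, 6 to 8 genes were called. *him-8* was called in 0 of those 6 fits (edgeR adjusted p of 0.122 to 0.254) and not with a replicate block (edgeR adjusted p = 0.116), and *syp-2* was lost without *ot269* replicate 2 or *icb38* replicate 2 (edgeR adjusted p of up to 0.141). For each of the 8, all 3 *ot269* libraries were above all 3 *icb38* libraries. These strains also differ in the marker they carry, *vtIs1* in *ot269* and *wIs51* in *icb38*, so allele and marker cannot be told apart.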

How the results depend on the processing

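The results were recomputed under 23 alternatives. Most medians and counts of called genes stayed near the values above. Counts of called genes under the alternatives are given without the share of all rows called in the same fit. With 1 library left out, the median log2 fold change in *icb38* against JR667 ran from -1.40 to -0.93, and 7 to 9 of the 10 genes were called. For *ot269* against JR667, 0 to 1 were called. With JR667 replicate 3 and *icb38* replicate 2 both left out, one of 2 alternatives chosen after seeing the data, the median in *icb38* was -0.76 and 5 genes were called, 4 were called higher in *ot267* against JR667 (*him-3*, *htp-1*, *htp-3* and *syp-4*) and 3 lower in *ot269* against *ot267*. A fit of only the 6 libraries compared called 5 in the last comparison. With replicate 1 of JR667 and of *icb38* left out, the other alternative chosen after seeing the data, the median in *icb38* against JR667 was -1.49. *rec-8* was called in that fit (-1.08, edgeR adjusted p = 0.00213) and *him-8* was not (edgeR adjusted p = 0.148). The causes were not tested.

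The replicate numbers in the labels do not pair the libraries: deviations from the strain means correlated at -0.12 to 0.07 over 18 same-numbered pairs, and 1 of 12 libraries correlated best with its own number. With the replicate number as a block, 8 genes were called in *icb38* against JR667 (*him-8* lost, edgeR adjusted p = 0.117), 9 against *ot267*, and 7 in *ot269* against *icb38*.

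Of single-gene calls, 20 were lost and 17 gained over the fits with no single library left out, and 20 lost and 4 gained over those with 1 left out. Signs changed only in small values that were called in neither fit. For *ot269* against JR667, library totals in place of size factors gave 0.012 for *him-3*, 0.11 for *him-8*, 0.078 for *htp-3* and 0.074 for *rec-8*. Without both JR667 3 and *icb38* 2 the values were 0.17 for *him-3*, 0.032 for *him-8*, 0.089 for *htp-1*, 0.15 for *htp-2*, 0.29 for *htp-3*, 0.19 for *rec-8* and 0.016 for *syp-1*. Without both JR667 1 and *icb38* 1, the other alternative added later, they were 0.0059 for *him-8* and -0.23 for *syp-4*, and in *ot267* -0.049 for *htp-2*, -0.0075 for *htp-3* and -0.061 for *rec-8*. With 1 library left out, the ranges that crossed 0 in *ot269* were -0.24 to 0.17 (*him-3*), -0.076 to 0.037 (*him-8*), -0.32 to 0.093 (*htp-1*), -0.37 to 0.15 (*htp-2*), -0.29 to 0.29 (*htp-3*), -0.28 to 0.20 (*rec-8*), -0.33 to 0.020 (*syp-1*) and -0.23 to 0.34 (*syp-4*), and in *ot267* -0.049 to 0.47 (*htp-2*), -0.0078 to 0.58 (*htp-3*), -0.061 to 0.41 (*rec-8*) and -0.068 to 0.39 (*syp-2*).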
